A study of Mus musculus with 6 samples.

Results

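The NDRG genes (N-myc downstream regulated genes) were followed through RNA sequencing of mouse kidney collecting duct cells from animals on a low-sodium or a high-sodium diet. The family has 4 members in the mouse, Ndrg1, Ndrg2, Ndrg3 and Ndrg4, and these were 4 of the 24928 genes to which counted transcripts could be matched. They hold 11 of the 59121 counted UCSC transcript identifiers (IDs). An ID belonged to a member if at least 50% of its exonic bases lay in the exons of that gene on the same strand. The family was chosen from earlier results of the diet comparison in these same libraries. The differences between diets of its members are therefore given as a description, without a test.

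Male C57BL/6J mice, an inbred strain, received a diet with 0.01 to 0.02% sodium (low-NaCl) or 2.4% sodium (high-NaCl) for 5 days before collecting duct cells were isolated from the kidney. All animals were on one of these diets, with no group on ordinary chow, and no genotype or drug differed. Each diet has 3 libraries of total RNA. The method of cell isolation is not in the labels, nor is it said that each library is a separate animal. The p-values below therefore rest on a spread between libraries that could be technical.

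NDRG proteins share the fold of alpha/beta hydrolases but have no known enzyme activity. NDRG1 and NDRG2 are phosphorylated in their C-terminal tail by SGK1, a kinase whose gene is induced by aldosterone, the adrenal steroid whose release rises with low sodium intake. Phosphorylated NDRG1 is widely used as a readout of SGK1 activity, and Ndrg2 was described as an early aldosterone-induced gene of the collecting duct. The files measure RNA alone and hold nothing on phosphorylation.

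The stretches of coding sequence that spell the SGK1 consensus are shown first, because the family is grouped here by that kinase. SGK1 prefers a serine or threonine in the pattern R-x-R-x-x-S/T, in which R is arginine and x any residue. The coding sequence of Ndrg1, 394 codons long, held 4 such matches, that of Ndrg2 (371 codons) 3, and those of Ndrg3 (388 codons) and Ndrg4 (404 codons) 1 each. Every match lay in the last exon. Codons for the paired arginines and for the target serine or threonine are in capitals, with 3 codons of flank on each side, read 5′ to 3′ from the spliced GENCODE M21 transcripts (GRCm38, the build of the count files, mm10).
Ndrg1, codons 322 to 369, chr15:66930945-66931088, minus strand: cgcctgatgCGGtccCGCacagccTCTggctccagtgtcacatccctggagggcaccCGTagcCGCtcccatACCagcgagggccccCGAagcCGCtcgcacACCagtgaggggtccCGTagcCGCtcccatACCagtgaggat
Ndrg2, codons 324 to 353, chr14:51906197-51906286, minus strand: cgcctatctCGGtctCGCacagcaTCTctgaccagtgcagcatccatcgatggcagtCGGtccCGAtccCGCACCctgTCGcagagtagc
Ndrg3, codons 336 to 347, chr2:156928826-156928861, minus strand: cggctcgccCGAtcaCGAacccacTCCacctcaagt
Ndrg4, codons 361 to 372, chr8:95713198-95713233, plus strand: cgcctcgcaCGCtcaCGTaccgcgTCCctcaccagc
The targets are codons 330, 346, 356 and 366 of Ndrg1, of which the last 3 lie in a tandem repeat, and codons 332, 348 and 350 of Ndrg2. Ndrg3 and Ndrg4 have their match at codons 344 and 369. Translated and aligned end to end, the 4 proteins were 56.2% (Ndrg1 with Ndrg2) to 65.8% (Ndrg1 with Ndrg3) identical over aligned residues. A match to the consensus is a description of the sequence and does not show that the residue is phosphorylated.

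How much of each gene could be measured differed widely. Per the file headers, no option for overlapping features was set, and by the defaults of the counting program a read that touches 2 IDs is then dropped. Only exonic bases that belong to a single ID can therefore give counts. This share was 82.2% for Ndrg1 (4847 of 5894 counted exonic bases), 66.5% for Ndrg3 (5246 of 7890), 12.9% for Ndrg4 (439 of 3405) and 1.95% for Ndrg2 (42 of 2157).

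**Figure D1:**
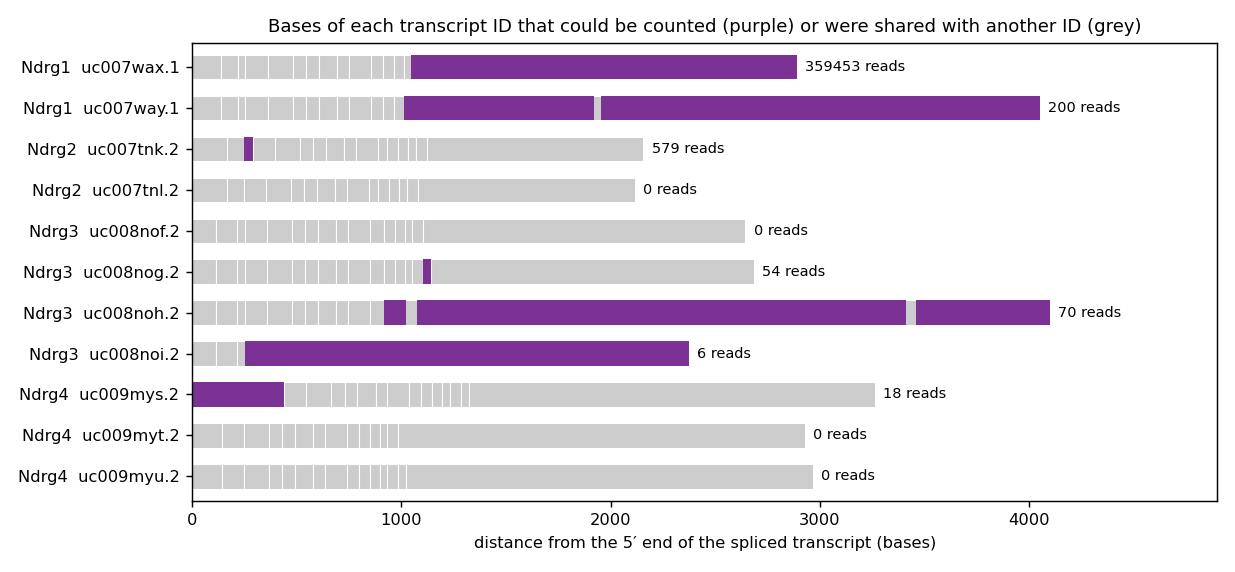
Each bar is 1 of the 11 transcript IDs of the family drawn along its spliced length in bases, with white lines at exon borders, purple where reads could be counted and grey where the bases are shared with another ID. Beside each bar stands the number of reads summed over the 6 libraries, from 0 in 4 IDs to 359453 in the main Ndrg1 ID.

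Ndrg1 spans chr15:66929318-66969640 on the minus strand (ENSMUSG00000005125.13, protein-coding) and has 2 IDs. In uc007wax.1, the full-length transcript of 16 exons, the countable part is the last pair of exons, 52 and 1791 bases long. The last exon holds codons 315 to 394, with all 4 consensus matches printed above, and 1552 bases of 3′ untranslated region. Nearly all counts of Ndrg1 are thus reads of the exon that encodes these matches and of the short exon before it. The other ID, uc007way.1, ends in an intron that is retained and has no coding base among its countable ones. A predicted gene on the opposite strand, Gm2895, shares 137 exonic bases with Ndrg1 and had 83 reads in all libraries together, and reads of the strands were not told apart.

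Ndrg2 spans chr14:51905271-51914158 on the minus strand and has 2 IDs that differ by a single coding exon, exon 3 of uc007tnk.2, and that exon alone could be counted. A spliced read that reaches from it into a neighbouring exon touches both IDs and is lost. Ndrg3 spans chr2:156927345-156992056 on the minus strand with 4 IDs. Its full-length transcripts, uc008nof.2 and uc008nog.2, differ by 39 coding bases, exon 16 of the latter. The remaining countable bases of Ndrg3 lie in uc008noh.2, whose countable bases are 3′ untranslated but for 1, and in uc008noi.2, a retained intron. Ndrg4 spans chr8:95676980-95715119 on the plus strand with 3 IDs, and only the first 3 exons of uc009mys.2 could be counted. The exons on which the values of Ndrg2 and of full-length Ndrg3 rest are printed here because they show how little sequence that is.
Ndrg2, exon 3 of uc007tnk.2, chr14:51911086-51911127, minus strand: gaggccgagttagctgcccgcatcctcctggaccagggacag
Ndrg3, exon 16 of uc008nog.2, chr2:156929932-156929970, minus strand: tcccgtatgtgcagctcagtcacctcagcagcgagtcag

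The libraries held 40101899 to 46861531 counted reads, of which the 4 members together took 0.0653% to 0.0866% after low NaCl and 0.180% to 0.249% after high NaCl. Mitochondrial genes took 20.5% to 21.8% of the counts of the low-NaCl libraries and 29.9%, 21.9% and 28.7% of those of high-NaCl libraries 1, 2 and 3. Library 1 of each diet was read on sequencer lane 1, the other low-NaCl libraries on lane 2 and the other high-NaCl libraries on lane 3, per the file headers. Markers of the collecting duct were abundant: the summed level of 10 principal cell markers was 3148 to 10961 CPM (counts scaled to a common library size, with TMM factors) and that of 13 intercalated cell markers 3866 to 8124. Leukocyte markers summed to at most 0.937 CPM, endothelial ones to at most 3.52, red blood cell ones to at most 7.01 and proximal tubule ones to at most 72.8. Other nephron segments were higher: the summed level was 1253 to 3665 CPM for thin limb markers (mostly the water channel gene Aqp1, also expressed by proximal tubule and vessels), up to 301 for the distal convoluted tubule and up to 193 for the thick ascending limb. The distal convoluted tubule sum was nearly all the kinase gene Wnk4 (151 to 299 CPM), with the listed marker Slc12a3 at 1.71 to 3.80 CPM. The principal cell transcription factor gene Gata3 had no read (0.0933% of its bases countable). The low sums have the same limit. The countable share was 0% for Pecam1 (endothelium) and Itgam (leukocytes) and 0.883% for Slc22a8 (proximal tubule). It was 100% for others, such as Cdh5 (endothelium) and Lyz2 (leukocytes). These sums may thus be understated.

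Ndrg1 RNA was 2.88-fold lower on the low-NaCl than on the high-NaCl diet. It measured 779, 792 and 618 CPM in low-NaCl libraries 1, 2 and 3 and 2156, 2232 and 1920.0 CPM in high-NaCl libraries 1, 2 and 3. The diets did not overlap, and the lowest high-NaCl library lay far above the highest low-NaCl one. The means were 730 ± 97.1 against 2103 ± 163 CPM (SD, n = 3 per diet), and the log2 fold change, low-NaCl minus high-NaCl here and throughout, was -1.53 ± 0.17 (SE). NDRG1 is known to be induced by hypoxia and by several cell stresses and is mutated in a hereditary neuropathy of Schwann cells.

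Ndrg1 also had the lowest log2 fold change among genes with a mean of at least 1000 CPM over the 6 libraries. Its mean CPM ranked 65 among 10564 tested genes, and 106 of these had a mean of at least 1000 CPM. None of those 106 had a log2 fold change below that of Ndrg1, while rarer genes such as Egr1 (-2.15) did. Ndrg1 reached the limit of 1000 CPM only through its high-NaCl libraries (mean 2103 CPM, against 730 CPM after low NaCl). Since the family was also chosen on this comparison, its rank is a description and no support. Of the 106 genes 4 were called lower, at an adjusted p under 0.05 over all tested genes, and 0 were called higher. Over all tested genes 1.74% were called lower and 1.72% higher. Ndrg1 is itself among the 4, so nothing is read from this count. After Ndrg1, the 4 comprised the water channel genes Aqp2 and Aqp3 (log2 fold changes of -1.28 and -1.27) and Kl, the gene of the FGF23 co-receptor klotho (-1.04). Aqp3, too, had a mean above 1000 CPM only on the high-NaCl diet (2102 CPM, against 874 CPM after low NaCl). The call of Kl was lost if low-NaCl library 2, low-NaCl library 3 or high-NaCl library 3 was left out.

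Of the 4 members, 3 had enough reads to be tested. By edgeR's quasi-likelihood test with Benjamini-Hochberg adjustment, 1 of these 3, Ndrg1, was among the called genes, and it was lower. Over all tested genes 3.46% were called in either direction and 1.74% were called lower. The libraries of the diets did not overlap for 1 of the 3 tested members, against 23.9% of all tested genes. Since the family was selected on this comparison, nothing is read from these counts.

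**Figure D2:**
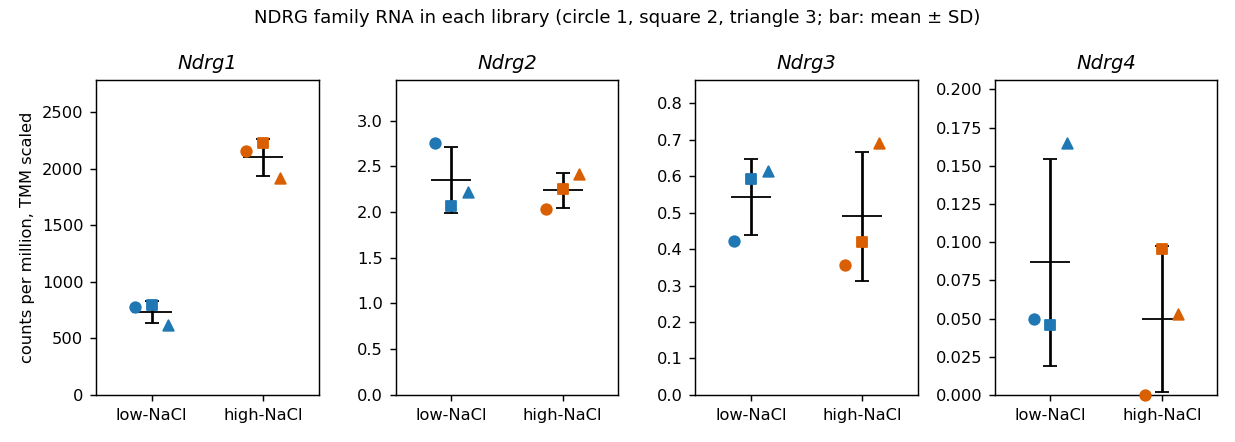
CPM of each member in every library on linear axes that start at 0, blue for low-NaCl and orange for high-NaCl, with black bars at the mean ± SD of 3 libraries. The Ndrg1 libraries of the diets lie apart (618 to 792 against 1920.0 to 2232 CPM), while those of Ndrg2, Ndrg3 and Ndrg4 overlap on axes that are smaller by orders of magnitude.

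The 2 IDs of Ndrg1 both had lower means on the low-NaCl diet. The full-length uc007wax.1 carried nearly all of the reads, at 729 ± 96.9 against 2102 ± 163 CPM. Its log2 fold change as a feature of its own was -1.53 ± 0.17. The retained-intron ID uc007way.1 had 10, 35 and 10 reads in low-NaCl libraries 1, 2 and 3 and 17, 88 and 40 in high-NaCl libraries 1, 2 and 3. The means were 0.427 ± 0.320 and 1.07 ± 0.607 CPM with overlapping libraries, and the log2 fold change was -1.33 ± 0.58.

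As a share of all Ndrg1 reads, those of the retained intron ran from 0.0319% to 0.101% after low NaCl and from 0.0217% to 0.0754% after high NaCl. Library 2 had the highest share on each diet. Its exact 95% binomial interval was 0.0701 to 0.140% on the low-NaCl diet, and it was 0.0605 to 0.0929% on the high-NaCl diet. The interval of library 1 was 0.0153 to 0.0586% on the low-NaCl diet and 0.0126 to 0.0347% on the high-NaCl diet. These intervals cover counting error only, since reads without molecular identifiers are not independent molecules. The share thus varied more between libraries of a diet than between diets.

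Ndrg2 showed no difference between the diets that its reads could resolve. Its exon had 111, 91 and 94 reads after low NaCl, and 74, 118 and 91 after high NaCl. After scaling these were 2.76, 2.07 and 2.22 CPM in low-NaCl libraries 1, 2 and 3 and 2.04, 2.26 and 2.42 CPM in high-NaCl libraries 1, 2 and 3. The diets overlapped, with low-NaCl library 1 the highest. The log2 fold change was 0.07 ± 0.23, and it was -0.07 without low-NaCl library 1. With 42 countable bases, this value does not describe the gene as a whole, and how far its reads run into the neighbouring introns was not tested.

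Ndrg3, whose protein is known to be stabilised by lactate in hypoxia, had 130 reads in all 6 libraries. It measured 0.422, 0.592 and 0.613 CPM in low-NaCl libraries 1, 2 and 3 and 0.358, 0.421 and 0.692 CPM in high-NaCl libraries 1, 2 and 3. The highest and the lowest library were both on the high-NaCl diet. The log2 fold change was 0.15 ± 0.41, between -0.02, if high-NaCl library 1 was left out, and 0.47, if high-NaCl library 3 was.

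The reads of Ndrg3 came from 3 of its IDs, whose values were not compared by a test. The 39-base exon of uc008nog.2 had 10, 12 and 13 reads in the low-NaCl libraries, but 2, 9 and 8 in the others. That was 0.276 ± 0.0291 against 0.147 ± 0.0819 CPM without overlap, from reads too few for a test of that ID. The 3083 countable bases of uc008noh.2 had 7, 14 and 13 reads against 5, 13 and 18, and the 2124 bases of uc008noi.2 had 6 reads, all in high-NaCl library 1.

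Ndrg4, a member best known from brain and heart, had 18 reads in all. There were 2, 2 and 7 reads in the low-NaCl libraries and 0, 5 and 2 in the high-NaCl libraries. A count of 0 in high-NaCl library 1 allows up to 0.0825 CPM (3 reads), which is within the range of the other libraries (0.0455 to 0.165 CPM). Both diets were close to that limit, so no fold change is given.

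Set per length over all countable bases of each gene, the members fell into 3 levels, which compare unlike parts of the genes. The countable bases of Ndrg2 and of Ndrg4 lie in 1 ID each, and their other IDs have none. The levels therefore do not rank the expression of whole genes. Per countable kilobase, Ndrg1 measured 127 to 163 CPM after low NaCl and 396 to 460.5 CPM after high NaCl. Its full-length ID uc007wax.1 alone measured 396 on average after low NaCl and 1140 after high NaCl. The gene's value is lower because it also counts the 3004 bases of the retained-intron ID (0.142 and 0.357). Ndrg2 followed at 48.5 to 65.7 CPM per countable kilobase over all 6 libraries, below every Ndrg1 library. Ndrg3 (0.0682 to 0.132) and Ndrg4 (0 to 0.376) overlapped and were lowest over all their countable bases. A short exon loses the spliced reads that reach across its borders, while a read that runs from it into an intron is counted. Values per kilobase of the 42-base exon of Ndrg2 and the 39-base exon of Ndrg3 may thus be understated or overstated. By how much was not tested. The 39-base exon of full-length Ndrg3 measured 7.08 CPM per countable kilobase after low NaCl and 3.76 after high NaCl. The gene's total is far lower because it also counts the bases of uc008noh.2 (0.0864 and 0.0935) and uc008noi.2 (0 and 0.0259).

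**Figure D3:**
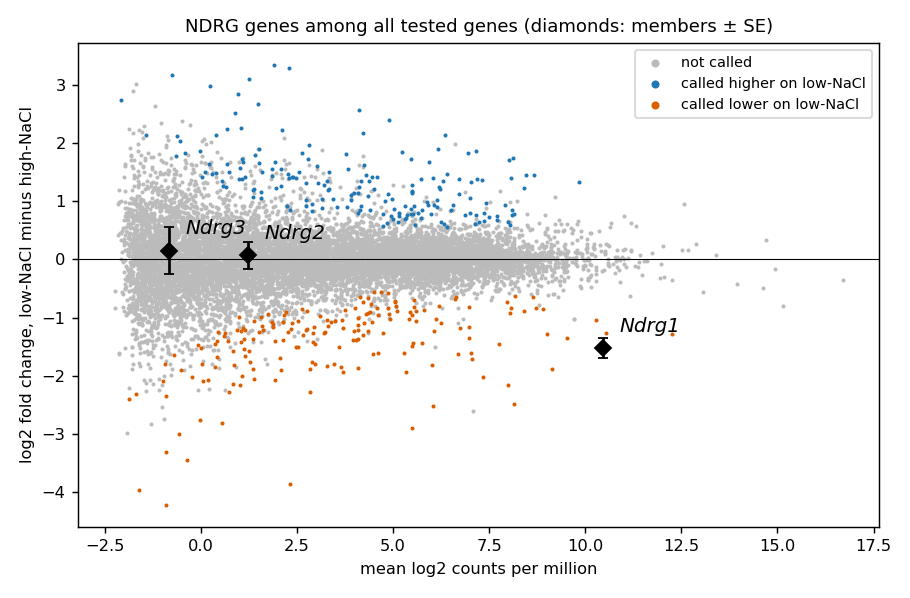
Each point is 1 of the 10564 tested genes, with its mean log2 CPM on the x axis and its log2 fold change (low-NaCl minus high-NaCl) on the y axis, blue if called higher and orange if called lower on low-NaCl. Black diamonds with SE bars mark the 3 tested members: Ndrg1 at -1.53 among the abundant genes, Ndrg2 at 0.07 and Ndrg3 at 0.15 among the rare ones.

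The genes around the family came from lists of kinases, substrates, hormone targets and known regulators. SGK kinases need phosphorylation by PDK1 (gene Pdpk1) and by the mTORC2 complex, and AKT kinases recognise the same consensus. Of 8 tested genes of this list of 14, 1 rose and 0 fell, beside 1.72% of all tested genes called higher. The median log2 fold change was 0.09 (0.00 over all tested genes). Sgk1 measured 2.61, 9.68 and 7.95 CPM in low-NaCl libraries 1, 2 and 3 and 0.193, 1.51 and 0.160 CPM in high-NaCl libraries 1, 2 and 3. It was thus higher on the low-NaCl diet in every library, against the direction of Ndrg1 (log2 fold change 3.35 ± 0.75, adjusted p = 0.0417 by edgeR). That value moved to 5.24 if high-NaCl library 2 was left out, and to 2.15 if both libraries of over 25% mitochondrial counts (high-NaCl 1 and 3) were. In high-NaCl libraries 1 and 3 Sgk1 was close to the level of 3 reads (0.0825 and 0.0798 CPM). Of its bases 38.2% were countable, so the size of its fold change is uncertain. Rictor, the defining mTORC2 subunit, had the next smallest p and was not called (-0.83 ± 0.59, adjusted p = 0.512). It measured only 0.156 ± 0.0829 against 0.278 ± 0.124 CPM. The mTORC2 subunit gene Mapkap1 had no read (1.91% of its bases countable).

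Of 8 tested other substrates of SGK1 among 10 listed, none was called by edgeR, with 0 of 8 at an adjusted p under 0.05 also by DESeq2. The median log2 fold change was -0.20, with 6 of the 8 below 0. Nedd4l, the ubiquitin ligase through which SGK1 holds the sodium channel at the cell surface, measured 3.01 ± 0.832 against 3.68 ± 1.58 CPM (-0.30 ± 0.35, adjusted p = 0.712). The smallest p-values were those of Wnk4, a kinase of salt transport (-0.53 ± 0.20, adjusted p = 0.189), and Cdkn1b, a cell cycle inhibitor (-0.32 ± 0.15, adjusted p = 0.293). At an unadjusted p under 0.05 there was 1, Wnk4.

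Early aldosterone targets and the proteins that gate the hormone's action are the company in which Ndrg2 was first described. Of 10 tested genes of 12 listed, 2 rose and 0 fell, and the median log2 fold change was 0.43. Besides Sgk1 it was Tsc22d3, the gene of the glucocorticoid-induced leucine zipper, that rose (3.95 ± 0.112 against 1.89 ± 0.315 CPM, 1.06 ± 0.22, adjusted p = 0.0326 by edgeR). Scnn1a, the alpha subunit of the sodium channel, measured 1900.0 ± 285 against 1288 ± 242 CPM and was not called (0.56 ± 0.19, adjusted p = 0.155). Neither Ndrg1 nor Ndrg2 was higher on the low-NaCl diet by more than its SE.

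Among transcription regulators known to act on NDRG genes, 9 of 12 were tested, 2 rose and 1 fell. Egr1, an immediate early transcription factor reported to activate Ndrg1, was the one that fell (92.9 ± 49.4 against 412 ± 123 CPM, -2.15 ± 0.38, adjusted p = 0.0202 by edgeR). Epas1, the gene of the hypoxia factor HIF-2alpha, rose (63.2 ± 12.0 against 36.3 ± 4.84 CPM, 0.80 ± 0.17, adjusted p = 0.0368). Ddit3, a stress factor of the ATF4 pathway, also rose (49.9 ± 5.69 against 30.4 ± 2.69 CPM, 0.71 ± 0.14, adjusted p = 0.0287). Myc, Hif1a and Arnt had too few reads to test, and Mycn, the factor after which the family is named, measured at most 0.308 CPM on average on either diet. Of their bases only 3.42% (Myc), 13.2% (Hif1a), 9.72% (Arnt) and 12.1% (Mycn) were countable, so these levels may be understated.

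Ndrg1 is itself usually counted among hypoxia response genes. Of 13 others tested none was called by edgeR (1 by DESeq2, and 2 at an unadjusted p under 0.05), and 10 of the 13 lay above 0, with a median log2 fold change of 0.36. The smallest p-values were those of Ero1l, an oxidase of the endoplasmic reticulum (0.46 ± 0.14, adjusted p = 0.115), and Hk2, a hexokinase (2.34 ± 0.95, adjusted p = 0.225). Hk2 measured only 0.725 ± 0.601 against 0.140 ± 0.134 CPM, with overlapping libraries. Slc2a1, the abundant glucose transporter gene of this list, measured 834 ± 46.2 against 871 ± 53.5 CPM. Of 9 tested integrated stress response genes, 1 rose, Ddit3, and 0 fell. Chac1, which breaks down glutathione, was next by p (2.09 ± 0.64, adjusted p = 0.113). Its libraries overlapped between diets, and it measured 1.86, 14.8 and 4.88 CPM in low-NaCl libraries 1, 2 and 3.

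**Figure D4:**
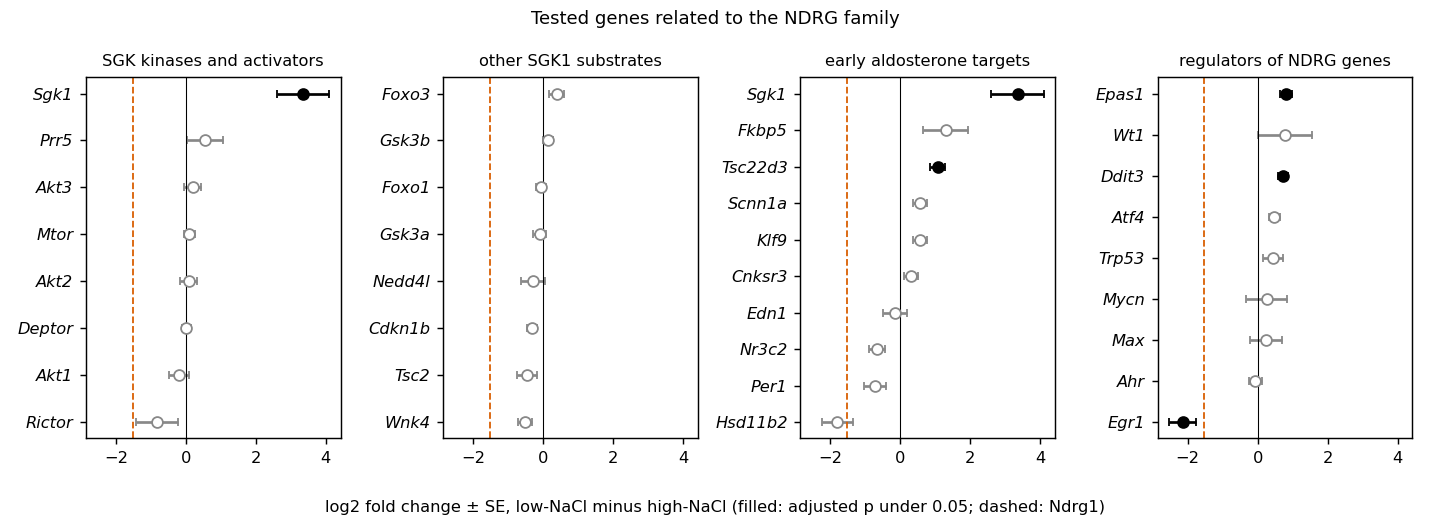
Log2 fold changes ± SE (low-NaCl minus high-NaCl, x axis) of the tested genes of 4 lists, filled where the adjusted p was under 0.05, with the value of Ndrg1 (-1.53) as a dashed orange line in each panel. Sgk1 (3.35) lies farthest to the right, and Egr1 (-2.15) and Hsd11b2 (-1.80) lie to the left of the Ndrg1 line.

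These calls depended on single libraries. None of Sgk1, Tsc22d3, Egr1, Epas1 and Ddit3 was called if low-NaCl library 3, high-NaCl library 1 or high-NaCl library 3 was left out, or with lane as a term or total-count scaling. Without low-NaCl library 2 only Egr1 of the 5 was called, without low-NaCl library 1 Ddit3 was not, and without high-NaCl library 2 Egr1 was not. The adjusted p over all their lost calls was 0.0524 to 0.429, and the sign of each log2 fold change was the same under the 18 alternatives run on them.

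Some markers of principal and connecting tubule cells fell alongside Ndrg1, and some of intercalated cells rose, against 1.74% of all tested genes called lower and 1.72% called higher. Of 8 tested principal cell markers 3 fell (Aqp2, Aqp3 and the sodium channel subunit gene Scnn1g) and 0 rose, and the summed level of the 10 listed was 3148 to 4786 CPM after low NaCl and 8805 to 10961 CPM after high NaCl. Of 3 tested connecting tubule markers 2 fell, the calcium-binding protein gene Calb1 and the calcium channel gene Trpv5. The sum of that list overlapped (28697 to 31833 against 30107 to 38935 CPM), being mostly Klk1, which was not called. Kcnj1 of the principal cell list was at 0.03 and Klk1 at -0.16 on the log2 scale. Of 11 tested intercalated cell markers 5 rose and 0 fell, with the ammonia transporter genes Rhcg (-0.13) and Rhbg (-0.58) below 0, with sums of 4577 to 8124 against 3866 to 4982 CPM. Of those 5, Hmx2 alone was still called if high-NaCl library 3 was left out. Of 18 alternatives, 12 lost the call of Slc4a1, 6 that of Atp6v0d2, 5 that of Atp6v1g3, 3 that of Foxi1 and 1 that of Hmx2. The call of Aqp2 was lost if any of low-NaCl libraries 2 and 3 and high-NaCl libraries 1 and 3 was left out. Those of Aqp3 and Scnn1g were lost without low-NaCl library 2, and that of Trpv5 without any 1 library but low-NaCl library 3. With lane as a term all these calls were lost, as were those of Calb1 and of the 5 intercalated cell markers. The call of Calb1 was lost under no other alternative, while total-count scaling also lost those of Aqp3, Trpv5 and Slc4a1. In bulk samples, fewer cells of a type and less RNA per cell cannot be told apart.

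Ratios of Ndrg1 CPM to marker CPM, a measure chosen after the values were seen, were taken for each of the 11 tested markers of the principal cell and connecting tubule lists. In 8 of the 11 the libraries of the diets overlapped, and in 3 every low-NaCl library lay below every high-NaCl one. A marker whose fold change is near that of Ndrg1 gives an overlapping ratio by arithmetic, so these ratios restate the fold changes and are no test. The overlapping ratios to Fxyd4, Hsd11b2 and Scnn1b divide by markers of at most 0.935, 2.34 and 4.03 CPM. Of the bases of these markers 0.404%, 2.27% and 5.97% were countable, so little can be read from their overlap. The ratio to Aqp2 was 0.215, 0.371 and 0.217 in low-NaCl libraries 1, 2 and 3 and 0.259, 0.363 and 0.298 in high-NaCl libraries 1, 2 and 3. The 3 ratios that stood apart were those to Klk1 (0.0248 ± 0.00318 against 0.0643 ± 0.00676), to the potassium channel gene Kcnj1 (27.6 ± 5.36 against 81.9 ± 16.6) and to the vasopressin receptor gene Avpr2 (192 ± 30.0 against 301 ± 20.98). The ratios to Kcnj1 and Avpr2 have a like limit, with 12.1% and 23.7% of the bases of these markers countable. Avpr2 measured only 3.09 to 8.05 CPM, while 100% of the bases of Klk1 were countable. The cells that express Ndrg1 were not identified by these bulk counts.

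**Figure D5:**
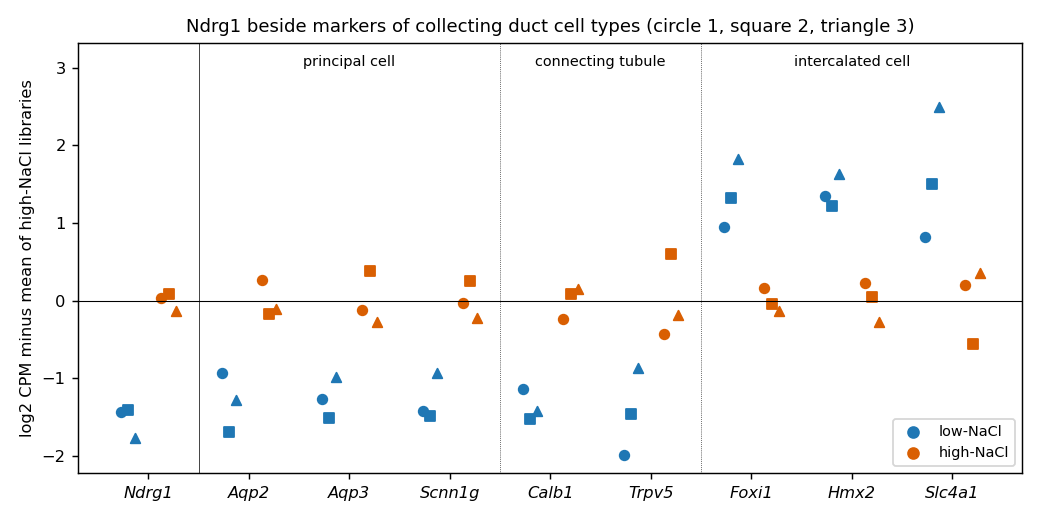
Log2 CPM of Ndrg1 and of 8 markers in each library, less the mean of the 3 high-NaCl libraries, blue for low-NaCl and orange for high-NaCl, with symbols for library numbers. The low-NaCl points of Ndrg1 and of the principal cell (Aqp2, Aqp3, Scnn1g) and connecting tubule markers shown (Calb1, Trpv5) lie below 0. Those of the intercalated cell markers Foxi1, Hmx2 and Slc4a1 lie above it. All 8 markers shown were called genes in the main analysis, but the call of Slc4a1 was lost under 12 of 18 alternatives and that of Trpv5 under 9. Uncalled listed markers are not shown, among them Kcnj1 (log2 fold change 0.03), Klk1 (-0.16), Rhcg (-0.13) and Rhbg (-0.58).

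Apart from markers, the patterns most like that of Ndrg1 were sought among 1090 candidate genes by Pearson correlation of log2 CPM over the 6 libraries. The 3 highest were Ppil6, a cyclophilin-like gene (r = 0.990), Ier2, an immediate early gene (r = 0.988), and Prim1, a DNA primase subunit (r = 0.985). Ppil6 measured 16.0, 16.4 and 15.2 CPM after low NaCl and 27.1, 29.3 and 24.3 CPM after high NaCl, and Ier2 measured 61.4, 73.0 and 57.1 against 242, 259 and 274 CPM. As with Ndrg1, the libraries of the diets stand apart in these genes, so the correlation mostly restates the gap between 2 sets of 3. Ndrg2 and Ndrg3 had as closest patterns Trnp1 (r = 0.853) and Atxn2 (r = 0.967), with counts of the members so low that these are no finding.

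RefSeq promoter sequences (GRCm38.p6, 250 bases before to 50 after a start) matched Ndrg2, Ndrg3 and Ndrg4, with 9 promoters in all, and not Ndrg1. None of the 9 held AGAACA on either strand, the hexamer of steroid hormone response elements, which 19.0% of 32851 promoters held. The E-box CACGTG, read alike on both strands, was found in 1 promoter of Ndrg4 and in 7.15% of all. The hypoxia element core ACGTG, which every such E-box contains on both strands, was found in that same promoter alone (19.6% of all). Its variant GCGTG was found in 5 of the 9 (32.4% of all). These are matches of letters in a short window and say nothing of binding.

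As a description, the log2 fold change of Ndrg1 lay between -1.63 and -1.42 under the 19 alternatives. A lane term, which leaves only lane 1 to set the difference, gave -1.47, and Ndrg1 was not among the 3 genes called in all. Within lane 1 the members' log2 differences were -1.47 for Ndrg1, 0.44 for Ndrg2 and 0.23 for Ndrg3, from 1 library of each diet. Without the libraries of over 25% mitochondrial counts, high-NaCl libraries 1 and 3, the value of Ndrg1 was -1.63.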

How the data were processed

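RNA of collecting duct cells was counted in 6 libraries, 3 per diet. The authors deposited raw read counts, 1 file per library, which per the file headers came from featureCounts 1.5.0-p3, run on exons of UCSC transcripts (mm10) with no strand or overlap option. FastQC, Subread and edgeR are named in the submitters' processing notes. The read length and the aligner's settings are not known here.

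Each ID was matched to a GENCODE M21 gene by identical introns (41510 IDs) or else by at least 50% of its exonic bases on the same strand (11061). The 6550 unmatched IDs (5.57% of counts) entered library sizes only. All 11 member IDs matched by introns. Tests across genes used edgeR 4.0.16 and R 4.3.3 (filterByExpr by diet, TMM, robust glmQLFit and glmQLFTest), adjusted by Benjamini-Hochberg over 10564 genes at a threshold of 0.05. SE is the absolute log2 fold change over the square root of F. Coding sequences were translated and aligned with Biopython 1.88 (BLOSUM62, gap costs 10 and 0.5). The fit was tested on simulated counts beforehand.

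The members, lists and rule for named genes were chosen with earlier results of these data known: all members, called list genes up to 4 filled to 2 by smallest p, Sgk1, Tsc22d3, Nedd4l and Scnn1a in any case, and the 3 genes of most alike pattern whose mean log2 CPM was 3 or more. Others (Kl, Mapkap1, Slc2a1, Hsd11b2, Myc, Hif1a, Arnt, Mycn, Gata3, Aqp1, Rhcg, Rhbg, Klk1 and the marker genes set beside Ndrg1) were named after their values were seen. So were Pecam1, Itgam, Slc22a8, Cdh5, Lyz2 and Slc12a3. All entries of the 6 related lists were found, Ero1a by its synonym Ero1l. Of 14 marker lists, those not described above had 0 called genes, except 1 higher in the thick ascending limb list (Slc12a1) and 1 higher in the proximal tubule list (Slc27a2). No library was a copy of another: chi-square over its degrees of freedom was 38.1 to 244 between libraries of a diet. Alternatives were other scalings, filters, DESeq2 1.42.0, limma-voom (limma 3.58.1), no robust estimation, a replicate block, lane, each library left out, and other ways to use IDs.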

Additional observations from a re-analysis of the deposited data

How the results depend on the processing

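The log2 fold change of Ndrg1 moved by less than the spread between libraries under all 19 alternatives (-1.59 to -1.42 with a library left out). That of Ndrg3 did so in all 18 that kept it (-0.11 to 0.47 over these, and -0.02 to 0.47 with a library left out), and that of Ndrg2 in 18 of 19 (-0.07 to 0.15 with a library left out), the exception being lane as a term (0.44). The CPM filter left Ndrg3 out, and Ndrg4 was not tested in the main analysis, so no alternative is given for it. Counts of called genes moved far more: from 182 higher and 184 lower to 81 and 55 by total-count scaling, 409 and 448 by DESeq2, 1 and 2 with lane as a term, and 31 and 92 without the libraries of over 25% mitochondrial counts (an alternative added after the data were seen), and to 280 lower with no filter. With a library left out they ran from 34 to 292 higher and from 36 to 254 lower, lowest without high-NaCl library 3 for the higher and without low-NaCl library 2 for the lower. Both counts fell by over 1.5 times if any of low-NaCl libraries 2 and 3 and high-NaCl libraries 1 and 3 was left out, and the higher count rose to 292 without low-NaCl library 1. The cause was not tested.

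Genes called per list were, in the main analysis, 1 for SGK kinases, 0 for other SGK1 substrates, 2 for aldosterone targets, 3 for regulators of NDRG genes, 0 for hypoxia and 1 for integrated stress. Both total-count scaling and the lane term left the kinase, aldosterone, regulator and stress lists at 0 each. The kinase list also had 0 with no filter and with limma-voom. DESeq2 called 1 hypoxia and 2 stress genes. Without the high-mitochondrial libraries the aldosterone list had 1 and the kinase, regulator and stress lists 0. With a library left out the ranges were 0 to 1 (kinases), 0 to 1 (substrates), 0 to 2 (aldosterone), 0 to 2 (regulators), 0 to 1 (hypoxia) and 0 to 1 (stress). With the replicate number as a replicate block, 465 genes were higher and 447 lower, and 4 aldosterone, 2 substrate, 2 hypoxia and 2 stress genes were called. Libraries of the same number deviated together with correlations of 0.169, 0.246 and -0.0757, so the numbers were not taken to pair the samples, and not every library correlated best with its own number. Few reads stand behind Ndrg3 and Ndrg4, and few countable bases behind Ndrg2, full-length Ndrg3 and Ndrg4; these limits were not told apart.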
